A study of Mus musculus with 29 samples.

Results

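This report describes 10 genes of the brain extracellular matrix, found by symbol among the 36172 gene rows of the expression matrix: the lecticans Acan, Bcan, Ncan and Vcan, the link proteins Hapln1, Hapln2 and Hapln4, the tenascins Tnr and Tnc, and Ptprz1. They were measured in 29 polyA RNA libraries from mice that carried the NuTRAP allele, a Cre-dependent construct that puts an EGFP tag on the ribosomal protein L10a, so that translating mRNA can be pulled down from one cell type (TRAP). All mice were about 3 months old and had received tamoxifen at 100 mg/kg a day on 5 consecutive days, and the study used males and females that were heterozygous for Cre and for NuTRAP. In 3 Aldh1l1-Cre/ERT2+; NuTRAP+ mice, in which the Aldh1l1 promoter drives an inducible Cre in astrocytes, the bead-bound (Positive) and the unbound (Negative) RNA were sequenced. In 6 Cx3cr1-Cre/ERT2+; NuTRAP+ mice, in which the Cx3cr1 promoter drives Cre in microglia and also in other brain macrophages, the Input (cleared homogenate), Negative and Positive fractions were sequenced, and the labels of 5 of these mice also gave a whole tissue (Slice) library of conventionally isolated brain RNA. All 6 groups therefore shared the NuTRAP allele, a Cre allele and tamoxifen, and the fractions of 1 mouse came from the same tissue. The study gives a later brain collection after tamoxifen for the Cx3cr1 line than it gives for flow cytometry and imaging of the Aldh1l1 line.

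As background, the lecticans are chondroitin sulphate proteoglycans whose one end binds hyaluronan, while the other end binds tenascin-R. Link proteins lock a lectican onto the hyaluronan chain, tenascins join several lecticans to each other, and Ptprz1 encodes a receptor phosphatase with a secreted proteoglycan form, phosphacan, that binds tenascins. Together they form the perineuronal nets around some neurons and the matrix at nodes of Ranvier, and they are known to be made by different cells: Bcan by astrocytes and oligodendrocyte lineage cells, Acan mostly by neurons, Hapln2 by oligodendrocytes, Tnr by oligodendrocytes and some neurons, and Ptprz1 by astrocytes and oligodendrocyte precursors. Bcan, Ncan, Hapln1, Tnc and Ptprz1 stand on the astrocyte marker list that the study took from earlier work on sorted cells, and Hapln2 on its oligodendrocyte list.

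The libraries held 4260949 to 26857866 counts, and the smallest was the whole tissue library of mouse 210, while every other library held at least 8782235. The tagged cell types were checked against fixed marker lists. All 9 astrocyte markers were higher in the Aldh1l1 Positive than in the Negative fraction, with summed levels of 16510 to 24420 against 3113 to 4034 CPM (counts scaled to a library total of 1000000). All 8 microglia markers were higher in the Cx3cr1 Positive fraction than in Input, with sums of 2907 to 6893 against 356 to 394 CPM. In these bulk fractions, fewer cells of a type and less RNA per cell cannot be told apart.

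The 10 genes lie on 7 chromosomes, and each lectican has a link protein gene as its neighbour with no other gene row of the matrix in between. In mm10, Bcan (chr3:87987531-88000356, minus strand) lies 21.4 kb from Hapln2 (chr3:88021750-88027511, minus strand). Ncan (chr8:70093085-70120844, minus strand) and Hapln4 (chr8:70083529-70090862, plus strand) face each other with their 3′ ends across 2.2 kb. Vcan (chr13:89655310-89742512, minus strand) and Hapln1 (chr13:89540636-89611832, plus strand) also face each other with their 3′ ends, across 43.5 kb. Acan (chr7:79053483-79115099, plus strand) lies in the same way 1.9 kb from Hapln3 (chr7:79117027-79131018, minus strand), which is not among the 10 genes. Tnr (chr1:159523769-159924922, plus strand), Tnc (chr4:63959785-64047015, minus strand) and Ptprz1 (chr6:22875502-23052916, plus strand) have no such partner. The rows that overlap Vcan, Hapln1 and Tnc were at 0 in all 29 libraries, and counts per gene do not separate the splice forms of Bcan, Vcan, Tnc or Ptprz1.

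RefSeq promoter windows, 250 bases before to 50 bases after a transcript start (GRCm38.p6, the reference release of mm10), covered 9 of the 10 genes in 10 windows, since Tnc has 2 starts. The windows of Bcan, Hapln2 and Ncan are printed 5′ to 3′ on the gene's strand because Bcan and Hapln2 are neighbours that moved in opposite directions in the astrocyte comparison, and because Ncan was the other lectican that rose there. Capitals mark matches, on either strand, to 5 short motifs: the TATA box spelled TATAAA, the box spelled CCAAT, the GC box spelled GGGCGG, the letters of the NFI motif spelled TTGGCA and the E-box spelled CAGCTG.
Bcan, chr3:88000307-88000606, minus strand: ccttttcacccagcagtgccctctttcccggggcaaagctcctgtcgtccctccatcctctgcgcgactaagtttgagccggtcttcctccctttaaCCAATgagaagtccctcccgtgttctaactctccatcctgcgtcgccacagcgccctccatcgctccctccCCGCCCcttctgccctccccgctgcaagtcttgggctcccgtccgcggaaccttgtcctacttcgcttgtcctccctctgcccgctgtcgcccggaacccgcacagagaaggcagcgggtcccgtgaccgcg
Hapln2, chr3:88027462-88027761, minus strand: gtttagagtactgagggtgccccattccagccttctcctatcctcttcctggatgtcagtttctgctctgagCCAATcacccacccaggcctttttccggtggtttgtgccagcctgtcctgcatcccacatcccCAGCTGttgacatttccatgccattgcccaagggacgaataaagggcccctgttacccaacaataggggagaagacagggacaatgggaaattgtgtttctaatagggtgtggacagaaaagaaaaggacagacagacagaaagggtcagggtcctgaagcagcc
Ncan, chr8:70120795-70121094, minus strand: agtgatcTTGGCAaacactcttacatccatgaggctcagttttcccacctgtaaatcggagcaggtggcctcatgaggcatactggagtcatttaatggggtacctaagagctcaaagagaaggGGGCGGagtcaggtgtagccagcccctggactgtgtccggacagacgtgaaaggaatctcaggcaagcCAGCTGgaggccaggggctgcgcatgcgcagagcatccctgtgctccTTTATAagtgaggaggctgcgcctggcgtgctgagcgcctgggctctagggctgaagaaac

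The Bcan window was richer in G and C (64.0%) than that of Hapln2 (52.0%) and held 24 CpG dinucleotides against 2, and the Ncan window lay between them with 56.7% and 9 CpG. Over all 32851 promoter windows the medians were 52.7% and 7 CpG. The windows of Acan (74.0%, 31 CpG) and Ptprz1 (71.7%, 29 CpG) held more than that of Bcan. The GC box letters GGGCGG were found in 7 of the 10 windows, against 35.7% of all windows, and not in those of Hapln1, Hapln2 or Tnr. TATAAA was found in the windows of Ncan and in both of Tnc (13.6% of all windows), and CCAAT in those of Acan, Bcan, Vcan and Hapln2 (37.4%). The NFI letters TTGGCA were found in the Ncan window and in 1 Tnc window (14.1%), and the E-box CAGCTG in those of Acan, Ncan and Hapln2 (16.3%). A match to CCAAT can share bases with a match to the NFI letters, since they are searched on both strands. These matches describe the letters of the windows, and binding was not measured.

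The first comparison asks which of these mRNAs were on astrocyte ribosomes, by setting the Aldh1l1 Positive fraction against the Negative fraction of the same 3 mice (290, 293 and 294, the order used for the values that follow). Bcan, Ncan, Hapln1, Tnc and Ptprz1 were higher in the Positive fraction, by 2.01 to 9.27 times, while Hapln2, Vcan and Hapln4 were lower, by 2.61 to 3.31 times. Acan was 5.52 times lower, but its low counts let it enter the test only through the Negative fraction, where it was high, so that its call is no support. Tnr did not pass the test. That is 5 members higher and 4 lower, or 3 lower without Acan, where 26.8% of all 13319 genes tested were higher and 24.8% lower. A gene counts as higher or lower at an adjusted p under 0.05 in edgeR's quasi-likelihood test (two-sided, Benjamini-Hochberg over all genes tested), and this holds for every adjusted p given here.

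Among the lecticans, Bcan, which encodes brevican, reached 2151, 2186 and 1896 CPM in the Positive fraction and 338, 286 and 228 CPM in the Negative fraction. Every Positive library lay far above every Negative library, with a log2 fold change of 3.21 ± 0.20 (SE, 3 mice; adjusted p = 5.17e-05). Ncan, which encodes neurocan, was at 549, 815 and 635 CPM against 228, 229 and 206 CPM. The groups did not overlap and the log2 fold change was 1.94 ± 0.18 (adjusted p = 1.85e-04). Acan, which encodes aggrecan, the lectican used to define perineuronal nets, was the rarest, at 1.79, 0.952 and 0.672 CPM against 9.62, 7.96 and 5.57 CPM. The Positive libraries held 15 to 21.4 counts of it, and the fitted log2 difference was -2.46 ± 0.43 (adjusted p = 0.0026), given here as a description. Vcan, which encodes versican, was at 4.00, 5.38 and 7.12 CPM against 13.7, 20.5 and 22.1 CPM. Its groups did not overlap either, and its log2 fold change was -1.42 ± 0.27 (adjusted p = 0.00396), which missed the threshold without mouse 293 (-1.35, adjusted p = 0.0584).

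**Figure D1:**
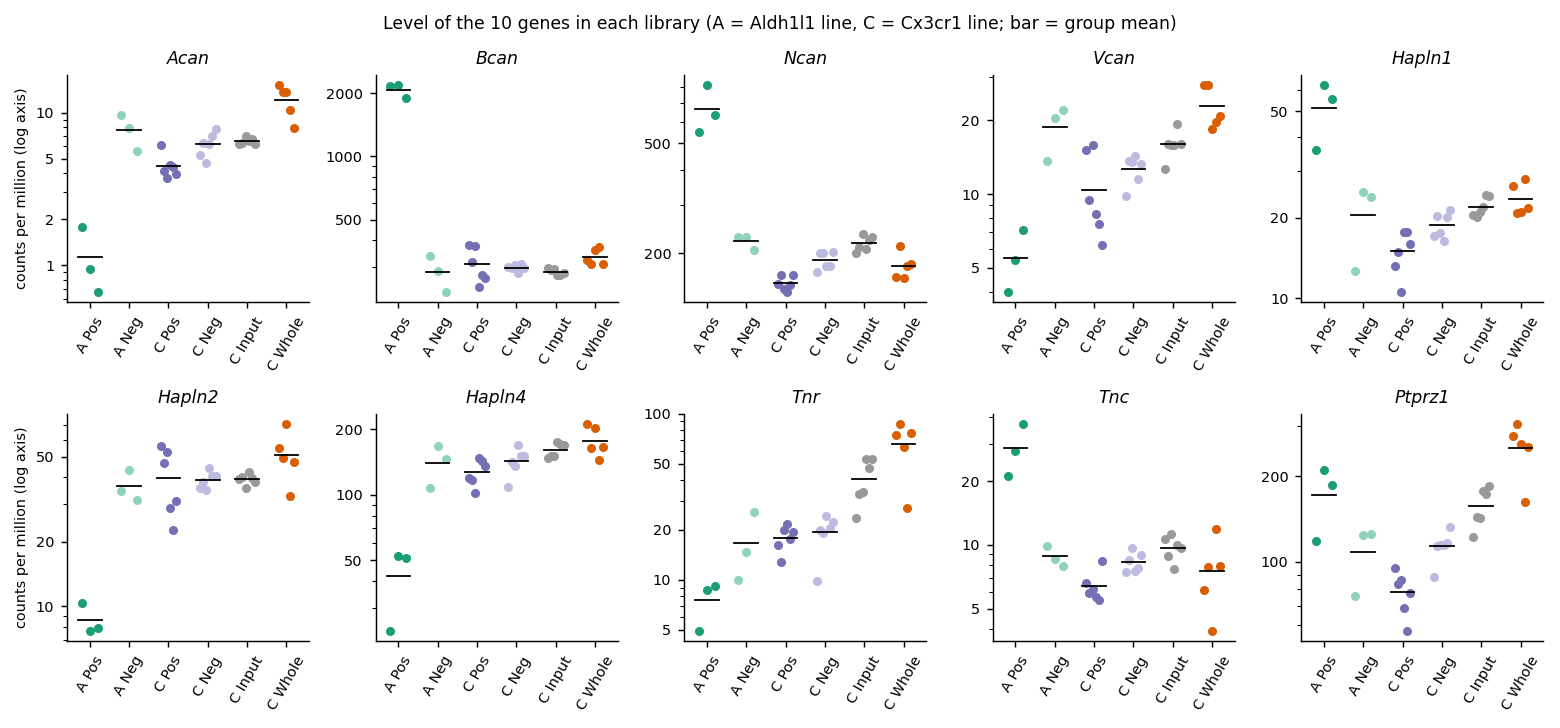
Level of each of the 10 genes in every library, in CPM on a log axis, by group and with the group mean, where each point is 1 library. Bcan stood at 1896 CPM or more in the 3 Aldh1l1 Positive libraries and at 379 CPM or less in all others, and Acan stood at 1.79 CPM or less in the same 3 libraries.

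The link proteins divided. Hapln1, cartilage link protein 1, was at 35.8, 62.9 and 55.6 CPM in the Positive fraction and at 12.6, 24.9 and 23.9 CPM in the Negative fraction. The lowest Positive value lay above the highest Negative one, and the log2 fold change was 1.67 ± 0.30 (adjusted p = 0.00322). Hapln2, the link protein of nodes of Ranvier, went the other way, with 10.4, 7.68 and 7.94 CPM against 34.5, 43.1 and 31.4 CPM. It fell by 1.73 ± 0.21 on the log2 scale (adjusted p = 5.67e-04), although it is the neighbour of Bcan. Hapln4, a link protein that binds brevican, was at 23.6, 52.5 and 51.3 CPM against 107, 169 and 146 CPM. It fell by 1.38 ± 0.31 (adjusted p = 0.00858), although it is the neighbour of Ncan, and Vcan and Hapln1 were likewise neighbours with opposite signs.

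Of the tenascins, Tnc was at 21.2, 27.8 and 37.1 CPM in the Positive fraction and at 9.91, 8.60 and 7.92 CPM in the Negative fraction. The groups were apart and the log2 fold change was 2.05 ± 0.24 (adjusted p = 4.40e-04). Tnr, which encodes the tenascin that cross-links lecticans in adult nets, was at 4.93, 8.70 and 9.15 CPM against 9.93, 14.8 and 25.7 CPM. All Positive values lay below all Negative ones, but the Negative libraries spread widely and the log2 fold change of -0.79 ± 0.37 missed the threshold (adjusted p = 0.113). With the mouse as a block it passed (-0.75, adjusted p = 0.00538), giving 5 members higher and 5 lower, with Acan, where the block raised the shares of all genes to 37% higher and 33.8% lower. Tnr also passed with all 6 groups in one fit (adjusted p = 0.0476) and without mouse 290 (0.0146). Ptprz1 was at 118, 210 and 187 CPM against 75.5, 124 and 126 CPM. Its groups overlapped, since mouse 290 was low in both fractions, but the ratio was above 1 in each mouse and the log2 fold change was 1.01 ± 0.27 (adjusted p = 0.0167).

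That call for Ptprz1 was lost without mouse 293 (0.93, adjusted p = 0.104) or mouse 294 (1.06, adjusted p = 0.0863). TMM scaling allows for differing composition of the fractions, and with library totals alone the median log2 fold change of all genes tested moved from 0.04 to -0.31 and the shares to 18.3% higher and 36.2% lower. Ptprz1 then missed the threshold (0.66, adjusted p = 0.0830) and Tnr passed it (-1.14, adjusted p = 0.0389), while the other members kept their calls. Markers of other cells moved with these members: all 8 microglia, all 8 neuron, 7 of 8 oligodendrocyte, 5 of 7 oligodendrocyte precursor and 4 of 5 parvalbumin neuron markers were lower in the Positive fraction, with sums of 806 to 941 against 3683 to 4003 CPM for oligodendrocytes, 54.96 to 78.7 against 165 to 238 CPM for precursors and 1838 to 2203 against 8353 to 8590 CPM for neurons. All 7 choroid plexus markers were higher, at 2945 to 3400 against 497 to 653 CPM. Of 4 fibroblast markers 3 were lower and 1 higher, with sums of 47.0 to 56.0 against 70.0 to 89.0 CPM. Each of these markers exceeded 3 counts in at least 1 library of both groups, and their part in the members' changes was not tested.

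**Figure D2:**
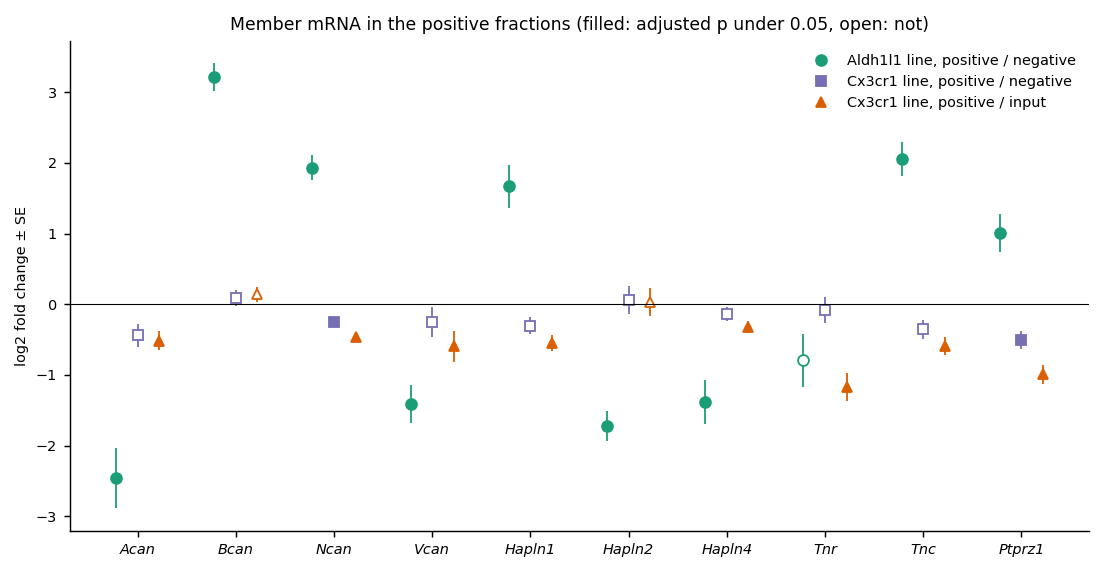
Log2 fold change of each of the 10 genes with its standard error, filled where the adjusted p is under 0.05. The comparisons shown are Positive against Negative in each line and Positive against Input in the Cx3cr1 line. In the Aldh1l1 Positive against Negative fraction the values run from 3.21 for Bcan to -2.46 for Acan, which was tested only through the Negative fraction. None of the 10 genes is called higher in the Cx3cr1 Positive fraction against the Negative fraction or against Input.

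The makeup of each family was then compared per length, as CPM per kb of annotated exon, since the genes differ from 2.37 kb (Hapln2) to 14.5 kb (Vcan). Bcan made up 84.6% ± 2.4 (SD, n = 3) of the lectican level in the Aldh1l1 Positive fraction and 67.6% ± 3.3 in the Negative fraction, with no overlap, and Ncan 15.3% ± 2.4 against 30.1% ± 2.9. Acan and Vcan together stayed below Ncan in every group, with means of 0.0252% and 0.0638% in the Positive fraction and 0.991% and 1.30% in the Negative fraction. Among the link proteins, Hapln1 held 37.5% ± 1.4 in the Positive and 6.24% ± 1.3 in the Negative fraction. Hapln4 held 45.4% ± 7.7 in the Positive fraction, not apart from Hapln1, and 65.4% ± 3.1 in the Negative fraction, where it led in each mouse. Tnc made up 86.3% ± 1.9 of the tenascin level in the Positive fraction and 48.4% ± 14.2 in the Negative fraction, where the mice ranged from 33.8% to 62.3%. In the Cx3cr1 line Tnr made up 70.4% ± 8.7 (n = 6) of the tenascin level in Input, 81.9% ± 13.4 (n = 5) in whole tissue, 62.8% ± 5.3 in the Positive fraction and 57.6% ± 7.5 in the Negative fraction, where the lowest mouse was at 44.4%. These shares were computed from the same values as the fold changes above and were not tested.

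**Figure D3:**
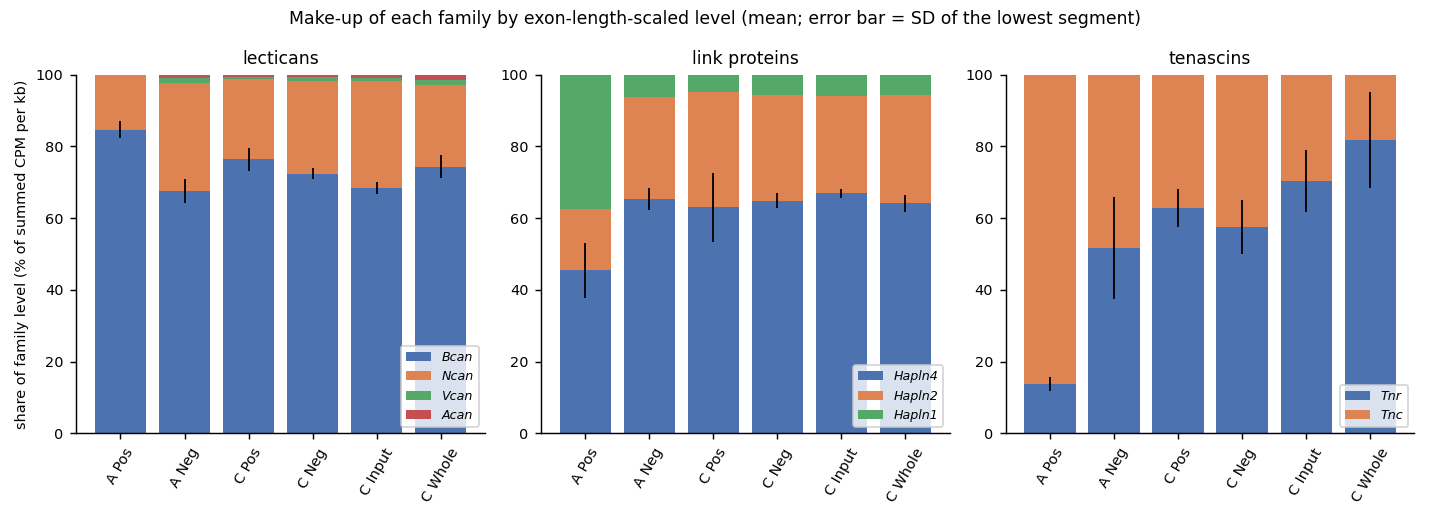
Share of each gene in its family's summed level in percent, from CPM per kb of exon, as group means with SD, for lecticans, link proteins and tenascins. The Aldh1l1 Positive fraction stands out by Hapln1 (37.5%) among the link proteins and by Tnc (86.3%) among the tenascins.

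Ranked per length, the Aldh1l1 Positive fraction was led by Bcan (511 ± 38.9 CPM per kb, SD, n = 3) and Ncan (92.6 ± 18.8). Ptprz1 (12.0 ± 3.3), Hapln4 (10.8 ± 4.2) and Hapln1 (8.72 ± 2.4) followed. Their ranges over mice overlapped, but Ptprz1 lay above Hapln1 within each of the 3 libraries, by 1.37 to 1.39 times, while Hapln4 lay above Hapln1 in 2 of them. Tnc (3.69 ± 1.0) and Hapln2 (3.66 ± 0.63) were level with each other, and Tnr (0.590 ± 0.18), Vcan (0.380 ± 0.11) and Acan (0.153 ± 0.078) came last. In Cx3cr1 Input the order was Bcan (70.0 ± 2.3, n = 6), Hapln4 (41.0 ± 3.3), Ncan (30.2 ± 1.9), Hapln2 (16.5 ± 0.92) and Ptprz1 (11.1 ± 1.7). Hapln1 (3.73 ± 0.31) and Tnr (3.17 ± 0.96) did not differ beyond their spread there, nor did Tnc (1.25 ± 0.17) and Vcan (1.11 ± 0.15), and Acan was again last (0.869 ± 0.044). By group mean, Bcan ranked first and Hapln4, Ncan, Hapln2 and Ptprz1 held ranks 2 to 5, in that order, in every group except the Aldh1l1 Positive fraction, but Hapln4 and Ncan in the Aldh1l1 Negative fraction, Ncan and Hapln2 in the Cx3cr1 Positive fraction and in whole tissue, and Hapln2 and Ptprz1 in whole tissue did not differ beyond their spread.

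The second comparison asks which of these mRNAs were on ribosomes of Cx3cr1 cells, by setting the Cx3cr1 Positive fraction against the Input of the same 6 mice. Tnr, Ptprz1, Vcan, Tnc, Hapln1, Acan, Ncan and Hapln4 were lower in the Positive fraction, by 1.25 to 2.24 times, and no member was higher. Bcan and Hapln2 did not pass the test. These are 8 members lower and 0 higher, where 25.6% of 13838 genes tested were lower and 23.3% higher. The count of 0 higher was also 0 at an unadjusted p under 0.05 and with DESeq2.

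Tnr fell the most. It was at 12.8, 18.5 and 21.9 CPM in the Positive fraction (lowest, median and highest, as in all values of this line) and at 23.6, 40.5 and 53.5 CPM in Input. No Positive library reached an Input library, and the log2 fold change was -1.17 ± 0.20 (6 mice; adjusted p = 3.36e-04). Ptprz1 was at 57.1, 80.6 and 95.1 CPM against 122, 159 and 185 CPM. It did not overlap either and fell by 0.99 ± 0.14 on the log2 scale (adjusted p = 5.02e-05).

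Ncan was at 145, 154 and 167 CPM against 200, 218 and 235 CPM, the smallest SE of the 10 genes, with a log2 fold change of -0.47 ± 0.06 (adjusted p = 4.26e-05). Hapln1 was at 10.6, 15.4 and 17.6 CPM against 20.1, 21.5 and 24.4 CPM (-0.54 ± 0.11, adjusted p = 0.00141). Acan was at 3.73, 4.28 and 6.14 CPM against 6.19, 6.38 and 7.04 CPM (-0.52 ± 0.13, adjusted p = 0.00532). These 3 genes had groups that did not overlap, although the highest Acan value, of mouse 155, lay just under Input.

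Hapln4 was at 102, 128 and 147.2 CPM against 147.3, 160 and 176 CPM, so that the groups nearly touched (-0.32 ± 0.09, adjusted p = 0.00789), and the call was lost with all 6 groups in one fit (adjusted p = 0.0797). Tnc was at 5.505, 6.03 and 8.40 CPM against 7.68, 9.85 and 11.3 CPM (-0.59 ± 0.13, adjusted p = 0.00205). Vcan was at 6.23, 8.87 and 15.8 CPM against 12.7, 16.0 and 19.3 CPM (-0.60 ± 0.22, adjusted p = 0.0333). The groups of Tnc and Vcan overlapped, and the Vcan call was lost without mouse 192 (adjusted p = 0.120), 209 (0.0910), 210 (0.124) or 277 (0.0969).

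Bcan and Hapln2 varied from mouse to mouse in both directions. Bcan was at 241, 296 and 379 CPM against 274, 285 and 296 CPM in Input (0.14 ± 0.11, adjusted p = 0.318). Hapln2 was at 22.8, 38.7 and 56.3 CPM against 35.8, 39.5 and 42.3 CPM (0.04 ± 0.20, adjusted p = 0.886). Both had Positive libraries above and below the whole Input range. In mice 155, 192, 194, 209, 210 and 277, in this order, the log2 ratio of Positive to Input was 0.46, 0.19, 0.45, -0.22, -0.01 and -0.08 for Bcan. The same ratios were 0.63, 0.28, 0.64, -0.59, -0.81 and -0.30 for Hapln2, and 0.35, -0.69, 0.07, -0.97, -1.35 and -1.36 for Vcan. Mice 155 and 194 were the highest for all 3 genes. They were also the highest for Tnr (-0.43 and -0.67) and Ptprz1 (-0.25 and -0.64), while mouse 194 was the lowest for Ncan (-0.58). The ratio of Tnr, Ptprz1 and Ncan was below 0 in all 6 mice.

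**Figure D4:**
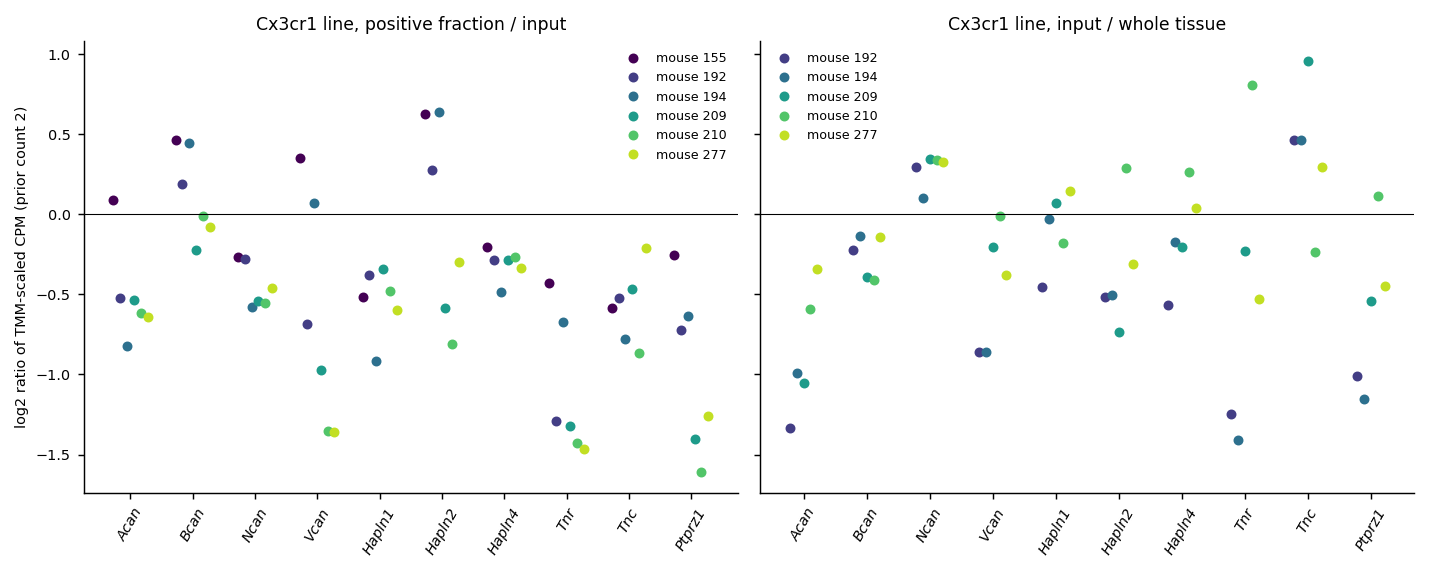
Log2 ratio of the Cx3cr1 Positive fraction to Input for each of the 10 genes, with 1 point per mouse. Bcan, Hapln2, Vcan and, through mouse 155 alone, Acan have points on both sides of 0, with Hapln2 running from -0.81 to 0.64.

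Marker sums of other cells also differed between these libraries. In the same order of mice, the 8 oligodendrocyte markers summed to 1757, 1786, 835, 1984, 1971 and 1664 CPM in the Positive fraction, against 2888 to 3276 CPM in Input, with 7 of 8 lower. The 9 astrocyte markers summed to 3409, 3379, 2814, 4188, 4366 and 4296 CPM, against 4528 to 4891 CPM, with 6 of 9 lower, and 6 of 7 oligodendrocyte precursor and 2 of 8 neuron markers were lower. The 8 neuron markers summed to 5849, 6707, 5165, 8550, 8252 and 7683 CPM, against 7650 to 8108 CPM in Input. Of 5 parvalbumin neuron markers 1 was higher and 2 lower, with sums of 1338 to 1827 against 1508 to 1736 CPM. Of 7 choroid plexus markers 3 were lower, with sums of 520, 860, 225, 1044, 1057 and 923 CPM against 846 to 1022 CPM, so that mouse 194 was lowest for these as for the oligodendrocyte markers. Lower were also 3 of 4 fibroblast markers (49.1 to 63.6 against 77.4 to 121 CPM summed), and 2 of 5 endothelial markers were higher (76.2 to 150.5 against 78.0 to 99.2 CPM). The 8 microglia markers, in the same order, summed to 3935, 4521, 6893, 2907, 3451 and 4012 CPM. Each of these markers exceeded 3 counts in some library of both groups, and the part of these cells in the members' values was not tested.

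Against the unbound RNA, the Cx3cr1 Positive fraction differed in fewer members. Ptprz1 (-0.51, adjusted p = 0.00947) and Ncan (-0.25, adjusted p = 0.0156) were lower, and the call for Ncan was lost without mouse 192 (adjusted p = 0.0683) or 194 (0.0643). These are 2 members lower and 0 higher, where 11.6% of 13776 genes were lower and 12.8% higher. The count of 0 higher was the same at an unadjusted p under 0.05 and with DESeq2, which called 4 lower by adding Tnc and Acan. Ptprz1 was at 88.6, 114 and 132 CPM in the Negative fraction and Ncan at 171, 190 and 203 CPM, both above all Positive libraries except that the lowest Ptprz1 value lay within the Positive range. Lower too were 7 of 8 oligodendrocyte, 6 of 9 astrocyte, 4 of 7 oligodendrocyte precursor and 3 of 4 fibroblast markers. So were 2 of 7 choroid plexus, 1 of 8 neuron and 1 of 5 parvalbumin neuron markers, while 1 of 5 endothelial markers was higher. The part of these cells was not tested.

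The Negative fraction in turn differed from Input in Tnr and Ptprz1, whose mRNA was lower in what the beads left behind. Tnr was at 9.84, 20.4 and 24.3 CPM against 23.6, 40.5 and 53.5 CPM in Input and fell by 1.07 ± 0.21 on the log2 scale (adjusted p = 0.0272). Ptprz1 fell by 0.47 ± 0.10 (adjusted p = 0.0294), a call lost with all 6 groups in one fit (adjusted p = 0.190). The groups of both overlapped slightly. These are 2 members lower and 0 higher, where 4.7% of 13748 genes were lower and 1.41% higher. With the mouse as a block, 6 members were lower, as Ncan (adjusted p = 0.00113), Vcan (0.00622), Hapln4 (0.00486) and Hapln1 (0.0175) also passed, and the shares of all genes became 19.5% and 17.7%. The calls of Tnr and Ptprz1 were lost without mouse 192, 194, 209, 210 or 277, and no other member passed then. Without mouse 155, Ncan (adjusted p = 0.0045), Vcan (0.0059) and Hapln1 (0.046) passed too. The shares of all genes in these fits are not given here. No member was higher in either tool, against 0 at an unadjusted p under 0.05 in edgeR and 1 in DESeq2. Ptprz1 thus passed at each step from Input through Negative to Positive, whereas Tnr differed from Input in both TRAP fractions without passing between them.

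Input was also compared with whole tissue, the conventionally extracted RNA of the libraries titled Slice. The extraction and the piece of brain taken may both differ between these groups, and they cannot be told apart. Acan, Ptprz1, Vcan, Hapln2 and Bcan were lower in Input, by 1.18 to 1.90 times, and Ncan was higher by 1.20 times. These are 1 member higher and 5 lower, where 16.3% of 13608 genes were higher and 14.2% lower. Acan was at 6.19, 6.38 and 7.04 CPM in Input and at 7.94, 13.6 and 15.2 CPM in whole tissue, and Bcan was at 274, 285 and 296 against 308, 323 and 370 CPM. Both had groups that did not overlap, with log2 fold changes of -0.93 ± 0.15 (adjusted p = 4.34e-04) and -0.24 ± 0.06 (adjusted p = 0.00676), of which that of Bcan was lost with all 6 groups in one fit (adjusted p = 0.0938).

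Ptprz1 was at 122, 159 and 185 CPM in Input and at 162, 259 and 305 CPM in whole tissue (-0.69 ± 0.15, adjusted p = 0.00348). Vcan was at 12.7, 16.0 and 19.3 against 18.4, 20.9 and 27.9 CPM (-0.54 ± 0.13, adjusted p = 0.00641). Hapln2 was at 35.8, 39.5 and 42.3 against 32.9, 49.2 and 70.8 CPM (-0.41 ± 0.13, adjusted p = 0.0277), a call lost with the mouse as a block (adjusted p = 0.0646), with all 6 groups in one fit (0.118) and without mouse 192, 194, 209 or 277 (0.0608 to 0.0902). Ncan was at 200, 218 and 235 against 163, 179 and 212 CPM (0.27 ± 0.07, adjusted p = 0.0142), a call lost without mouse 192 (0.0902), 209 (0.0669) or 277 (0.0583). The groups of these 4 genes overlapped, for Ptprz1 and Hapln2 only through the shallow whole tissue library of mouse 210.

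That library was also the lowest for Tnr, at 27.3 CPM against 63.1 to 86.7 CPM in the other 4. Tnr missed the threshold with it (-0.73, adjusted p = 0.0711) and passed without mouse 210 (-0.94, adjusted p = 0.0138) and, with that mouse kept, with all 6 groups in one fit (-0.74, adjusted p = 0.0387). Tnc likewise changed from 0.44 (adjusted p = 0.113) to 0.57 (adjusted p = 0.0295) without mouse 210. In that fit 2 members were higher and 6 lower, and its shares of all genes are not given here. Hapln1 and Hapln4 did not pass in either case. Lower in Input were also 7 of 8 oligodendrocyte markers (2888 to 3276 against 3335 to 4625 CPM summed), 5 of 5 endothelial markers (78.0 to 99.2 against 137 to 251 CPM), 3 of 7 oligodendrocyte precursor, 4 of 9 astrocyte and 3 of 4 mural markers tested (93.9 to 109 against 104 to 150 CPM). Of 7 choroid plexus markers 2 were higher and 1 lower in Input, with sums of 846 to 1022 against 221 to 1014 CPM, and in whole tissue mice 210 (848 CPM) and 277 (1014 CPM) stood above the others. Of 5 parvalbumin neuron markers 2 were higher and 1 lower in Input (1508 to 1736 against 1277 to 1433 CPM summed). Of 8 neuron markers 2 were higher and 2 lower (7650 to 8108 against 6907 to 8105 CPM), and of 4 fibroblast markers 1 was higher. The part of all these markers in the differences was not tested.

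Between the lines, the Aldh1l1 Positive fraction held more Bcan (3.06), Tnc (2.48), Ncan (2.41), Hapln1 (2.10) and Ptprz1 (1.44, all log2 fold changes) than the Cx3cr1 Positive fraction, and less Hapln2 (-1.90), Acan (-1.73), Hapln4 (-1.27) and Tnr (-0.92). The largest adjusted p among these 9 was 0.00384, that of Tnr. Vcan did not pass (-0.61, adjusted p = 0.139), but did with library totals alone (-0.91, adjusted p = 0.0294) or with all 6 groups in one fit (-0.60, adjusted p = 0.0378). Acan entered this test only through the Cx3cr1 Positive fraction, where it was higher, so its value is a description. These are 5 members higher and 4 lower, or 3 lower without Acan, where 30.6% of 13676 genes were higher and 33.1% lower, or 21% and 46.2% with library totals alone. Line and mice cannot be told apart in this comparison, since no mouse carried both Cre alleles. The same holds for the time from tamoxifen to collection, here and in the other comparisons between the lines. Beside the tagged cells' own markers (9 of 9 astrocyte markers higher, 8 of 8 microglia markers lower), 7 of 8 oligodendrocyte, 5 of 7 precursor, 8 of 8 neuron and 5 of 5 parvalbumin neuron markers and 3 of 4 fibroblast markers were lower in the Aldh1l1 Positive fraction, and 7 of 7 choroid plexus markers were higher. Their sums were 806 to 941 against 835 to 1984 CPM for oligodendrocytes, 1838 to 2203 against 5165 to 8550 CPM for neurons and 2945 to 3400 against 225 to 1057 CPM for the choroid plexus. Their part was not tested.

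The Negative fractions of both lines were close. No member passed the test, where 0.125% of 13613 genes were higher and 0.125% lower (0.0588% and 0.147% with library totals alone). Vcan, higher in the Aldh1l1 line by 0.61 on the log2 scale, and Ncan, higher by 0.26, were the 2 members with an unadjusted p under 0.05 in edgeR (0.00244 and 0.00934, adjusted p = 0.136 and 0.201). DESeq2 called Vcan alone (adjusted p = 0.0104), and edgeR did so without mouse 290 (adjusted p = 0.0396).

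The difference between the lines in the Positive to Negative ratio was tested directly as an interaction. The ratio was higher in the Aldh1l1 line for Bcan, Tnc, Ncan, Hapln1 and Ptprz1 and lower for Hapln2, Hapln4 and Vcan, with log2 differences from 3.08 ± 0.22 (Bcan) to -1.84 ± 0.35 (Hapln2). Acan, whose Aldh1l1 Positive counts did not pass the filter, differed by -2.08 ± 0.38, given as a description. These are 5 members higher and 4 lower, or 3 lower without Acan, where 25.5% of 13983 genes were higher and 29.9% lower (18.6% and 40.9% with library totals alone). The median over all genes tested was -0.11 and moved to -0.39 with library totals alone. Tnr differed by -0.76 (adjusted p = 0.105), which passed with the mouse as a block (-0.74, adjusted p = 0.0428) or with library totals alone (-1.03, adjusted p = 0.0318). The call for Vcan was lost without mouse 293 (-1.13, adjusted p = 0.0608). The same ratio was lower in the Aldh1l1 line for 7 of 8 oligodendrocyte, 5 of 7 precursor, 8 of 8 neuron and 4 of 5 parvalbumin neuron markers and higher for 7 of 7 choroid plexus markers, whose part was not tested.

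The same fits were read for 56 further genes of the matrix that bind, build, modify or cut these molecules. In the Aldh1l1 Positive against Negative fraction 46 of them were tested, and 13 were higher (12 without Chst7, described below) and 12 lower, near the shares of 26.8% and 24.8% over all genes tested, with a median log2 fold change of 0.10 against 0.04. Higher were Mdk (3.87 ± 0.46) and Ptn (1.73 ± 0.14), the secreted growth factors that bind Ptprz1 through its chondroitin sulphate, and Cspg5 (2.39 ± 0.35), the transmembrane proteoglycan neuroglycan C. Mdk was at 351, 159 and 193 CPM against 31.6, 16.1 and 14.1 CPM and did not overlap. Ptn was at 683, 669 and 730 CPM against 281, 268 and 247 CPM, and Cspg5 at 1627, 1059 and 937 against 417, 266 and 194 CPM.

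Of the 6 hyaluronan genes tested, 3 were higher and 1 lower. Hyal1, a hyaluronidase, rose by 2.64 ± 0.23 and Cd44, a hyaluronan receptor, by 1.70 ± 0.32. Of the 20 chondroitin enzymes, 3 were higher and 4 lower (6 and 6 with the mouse as a block, where the shares of all genes were 37% and 33.8%). Chsy1, a chondroitin synthase, rose by 1.65 ± 0.16, whereas Chsy3 fell by 1.69 ± 0.23 and Chst15 by 1.69 ± 0.17. Chst7, a sulphotransferase, had a fitted difference of 1.62 ± 0.34, given as a description, since it entered the test only through the Positive fraction, and without it 2 of the enzymes were higher. Otx2, a homeobox factor taken up by nets, rose by 1.71 ± 0.31, and as background it is made by the choroid plexus, whose markers were higher in the same libraries. Its part was not tested.

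Lower in the Aldh1l1 Positive fraction were Adamts4 (-2.08 ± 0.24), a protease that cuts lecticans, Sema3a (-1.71 ± 0.22), a guidance factor held in nets, and the Nogo receptors Rtn4r (-1.68 ± 0.20) and Rtn4rl1 (-1.44 ± 0.21), which also bind chondroitin sulphate. Cspg4 (-1.47 ± 0.28), the NG2 proteoglycan of oligodendrocyte precursors, and Dcn (-1.23 ± 0.22), the fibroblast proteoglycan decorin, fell too. Adamts4 was at 3.37, 5.74 and 6.18 CPM against 25.8, 30.0 and 27.1 CPM. Among the genes named for this comparison other than Chst7, the largest adjusted p was 0.00375 (Cd44), and the calls of Otx2 and Dcn were lost without mouse 293 (adjusted p = 0.0556 and 0.0561). Hapln3, the neighbour of Acan, was at 4.07, 1.25 and 1.03 CPM against 1.94, 1.07 and 0.680 CPM, with overlapping groups (1.16, adjusted p = 0.183). It passed with the mouse as a block (0.97, adjusted p = 0.0347), but entered the test only through the Positive fraction, where it was higher.

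In the Cx3cr1 Positive fraction against Input 49 of the 56 genes were tested, and 6 were higher (5 without Lyve1) and 22 lower, where 23.3% and 25.6% of all genes tested were, with a median of -0.17 against 0.00. Lyve1, a hyaluronan receptor known from border macrophages, entered the test only through the Positive fraction (3.13 ± 0.34, given as a description) and was at 5.13, 7.01 and 19.6 CPM against 0.716, 1.03 and 1.12 CPM. Chst7 (1.80 ± 0.19), Dse (0.85 ± 0.19) and Chst14 (0.74 ± 0.18), which sulphate or epimerise chondroitin chains, and Mmp2 (0.54 ± 0.17), a gelatinase, were higher. Chst7 was at 4.24, 7.71 and 10.2 CPM against 1.72, 2.29 and 2.44 CPM, so that the groups were apart. Of the 20 chondroitin enzymes tested, 4 were higher and 10 lower.

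Lower were Adamts4 (-1.23 ± 0.11), Cntn1 (-0.91 ± 0.13), an adhesion molecule that binds Tnr and Ptprz1, Chsy3 (-0.81 ± 0.11), Sema3a (-0.75 ± 0.13), Cspg4 (-0.73 ± 0.13), Csgalnact1 (-0.65 ± 0.087), Ptprf (-0.61 ± 0.078) and Chst3 (-0.61 ± 0.16). Cntn1 was at 158, 241 and 297 CPM against 405, 444 and 483 CPM, and Adamts4 at 11.9, 14.3 and 17.0 against 28.0, 34.6 and 39.8 CPM, both without overlap. Among the genes named for this comparison other than Lyve1, the largest adjusted p was 0.0154, of Mmp2, which missed the threshold without mouse 194 (adjusted p = 0.0526).

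**Figure D5:**
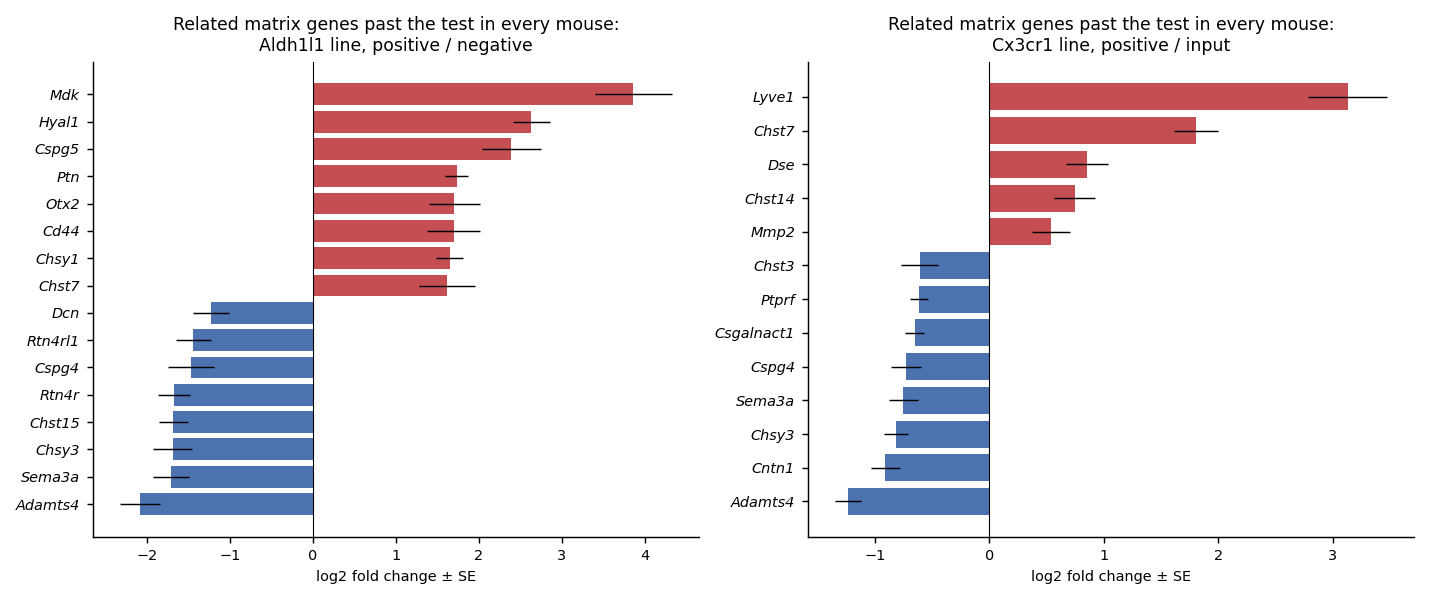
Log2 fold change with standard error of the related matrix genes named by a fixed rule, in the Aldh1l1 Positive against Negative fraction and in the Cx3cr1 Positive fraction against Input. Values run from 3.87 (Mdk) to -2.08 (Adamts4) in the first and from 3.13 (Lyve1) to -1.23 (Adamts4) in the second. Chst7 in the first and Lyve1 in the second entered the test only through the Positive fraction, so their values are descriptions.

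Finally, the genes whose log2 level followed each member most closely over all 29 libraries were sought among 14109 genes, by Pearson's r and as a description, since libraries of 1 mouse and of 1 fraction are not independent. Bcan was most like Aldh4a1, Arhgef19 and Smox (r = 0.990 to 0.991), Ncan like Lix1, Dio2 and Tmem164 (0.978 to 0.982), Hapln1 like Bmpr1a, Paqr8 and Lrrc58 (0.963 to 0.969), and Tnc like Chrdl1, Lhx2 and Slc30a10 (0.947 to 0.961). Hapln4 was most like Hspa12a, Dpp6 and Ina (0.977 to 0.980) and Acan like Lgi3, Nefl and Fstl5 (0.923 to 0.930), of which Ina and Nefl encode neurofilament proteins. Hapln2 was most like Ppip5k2, Sytl2 and Nacad (0.947 to 0.956), Ptprz1 like Cdc37l1, Erbb2ip and Fasn (0.942 to 0.947), and Vcan like Il1rap, Prrc2c and Mtmr4 (0.888 to 0.891). The 10 members were left out of these lists beforehand, so how closely they follow each other was not examined here.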

How the data were processed

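RNA of the TRAP fractions and of whole tissue was sequenced as strand-specific polyA libraries. Per the labels and the study's methods, the authors trimmed and aligned paired reads to mm10 and counted RefSeq genes in Strand NGS, then normalised by DESeq. The matrix they deposited holds, per gene and library, an expected count, an estimated count of reads, of which 82.8% of the values above 0 were not whole, and a normalised value on a log2 scale, which was not used here. Per the study's methods, alignment was directional and reads mapped in the wrong direction were dropped. Whether the counting step itself used strand is not given in the sources used here. Input and whole tissue of the Aldh1l1 line were not analysed here.

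Counts were rounded and fitted with edgeR 4.0.16 (R 4.3.3), with TMM scaling, robust quasi-likelihood and two-sided tests, keeping a gene if all libraries of 1 compared group or more exceeded 20 counts, and SE was taken as the log2 fold change over the root of F. CPM was computed from unrounded counts and library totals. Alternatives were DESeq2 size factors, library totals only, no filter, at least 100 counts, DESeq2 1.42.0, all 6 groups in one fit, the mouse as a block, and each mouse left out, and for the further genes named they were added after seeing the data. Same-numbered libraries came from the same mouse per the labels. Their deviations from group means correlated by 0.438 to 0.643 between Aldh1l1 fractions, and in the Cx3cr1 line by -0.288 to 0.604. The scripts were tested on simulated data. The members and gene lists were chosen with earlier results of these data known. All members are named, and of the further genes up to 8 a direction, by size of the change, among those past the threshold and with the same sign in every mouse. CPM per kb used the exon lengths of the annotation. The depth of 4260949 to 26857866 counts limits the precision of genes with few counts, such as Acan. The genes most like Tnr are not reported here.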

Additional observations from a re-analysis of the deposited data

Results flagged for a closer look

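Of 40 sets of values (each member in each group of 4 to 10 libraries), 2 had a library far from the others by Dixon's criterion, which chance alone gives in about 1 in 20 groups. Both were of mouse 155. Acan was at 6.14 CPM in its Cx3cr1 Positive library, against 3.73 to 4.54 CPM in the other 5. Tnr was at 9.84 CPM in its Cx3cr1 Negative library, against 19.3 to 24.3 CPM.

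The Positive to Negative log2 ratio differed between the Aldh1l1 and the Cx3cr1 line, by edgeR's interaction test, in 9 of the 10 members, of which Acan is a description only, since its Aldh1l1 Positive counts did not pass the filter. It was higher in the Aldh1l1 line for Bcan (3.08, adjusted p = 2.25e-09), Tnc (2.37, adjusted p = 1.66e-07), Ncan (2.14, adjusted p = 1.62e-09), Hapln1 (1.93, adjusted p = 1.30e-05) and Ptprz1 (1.47, adjusted p = 1.74e-04). It was lower for Acan (-2.08, adjusted p = 1.53e-04), Hapln2 (-1.84, adjusted p = 2.11e-04), Hapln4 (-1.29, adjusted p = 6.49e-04) and Vcan (-1.21, adjusted p = 0.0132). Over all 13983 genes tested, the ratio was higher in the Aldh1l1 line for 25.5% and lower for 29.9%.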

How the results depend on the processing

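Over the members' fold changes in 8 comparisons, 498 values from other settings kept their direction and side of the threshold, 20 passed it newly, 9 no longer did and 7 changed sign, and with 1 mouse left out these were 486, 9, 27 and 18. Those that changed sign were small and not called. With the mouse as a block (pairing), Hapln2 in the Cx3cr1 Positive fraction became -0.0408 against Input and -0.01975 against Negative, the count of members lower in the Negative fraction against Input became 6, and the further calls that changed are given above. In the same comparison Hapln2 was 0.004381 with DESeq2 size factors, 0.004374 with at least 100 counts and 0.003808 with DESeq2, and the lower members numbered 1 with no filter, 4 with DESeq2 and 1 with all 6 groups in one fit, where 1.08%, 9.39% and 0.429% of all genes were lower. Hapln4 between the Negative fractions was -0.02121 with library totals and -0.005431 with no filter. Members lower in the Cx3cr1 Positive against Negative fraction numbered 4 with library totals or DESeq2 (13.3% and 14.3% of all genes), and 1 member was higher between Negative fractions with DESeq2. The shares of all genes in the fits with 1 mouse left out are not given here. With 1 mouse left out, members lower numbered 1 to 3 (Cx3cr1 Positive against Negative) and 0 to 5 (Negative against Input), and members higher 0 to 2 (Input against whole tissue) and 0 to 1 (between Negative fractions). Log2 fold changes then ran from -0.10 to 0.16 (Hapln2, Positive against Input), -0.10 to 0.19 (Hapln2) and -0.19 to 0.03128 (Tnr) in Positive against Negative, and -0.14 to 0.03929 (Acan) and -0.01781 to 0.01868 (Hapln2) in Negative against Input. Between the Negative fractions they ran from -0.20 to 0.12 (Bcan), -0.20 to 0.03948 (Hapln2), -0.13 to 0.15 (Hapln4), -0.59 to 0.06509 (Tnr) and -0.14 to 0.15 (Ptprz1). Beside the changes given above, Tnr in Negative against Input (adjusted p = 0.0533) and Hapln2 in Input against whole tissue (0.0625) missed the threshold with no filter, and Vcan in Cx3cr1 Positive against Input (0.0516) with at least 100 counts. The causes were not tested. Of the values for the further genes named, 325 kept direction and side of the threshold, 4 lost their call and 2, both of Hapln3, gained one. Depth limits members with few counts, and 8 of 10 members remained to be tested in the Aldh1l1 fractions at 100 counts.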

Other observations

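The 56 further matrix genes also differed in the comparisons not described for them above. In the Cx3cr1 Positive against Negative fraction, 6 of 49 tested were higher (5 without Lyve1, which entered the test only through the Positive fraction) and 12 lower (4 and 8 with the mouse as a block), where 12.8% and 11.6% of all genes were (9.28% and 7.98% with the block), and 4 of the 9 receptors and partners were lower and none higher. In Input against whole tissue, 9 of 48 were higher and 5 lower (5 and 1 with the block), where 16.3% and 14.2% of all genes were (13.1% and 9.56% with the block), among them 5 higher and 1 lower of the 9 receptors and partners (3 and 0 with the block). Between the Aldh1l1 and Cx3cr1 Positive fractions 44 of the genes passed the filter in both groups, and of these 17 were higher and 14 lower in the Aldh1l1 line, where 30.6% and 33.1% of all genes tested were. A further 7 genes, 3 of them proteases, passed the filter through 1 group only and are not counted. Between the Negative fractions none of 49 genes passed edgeR's test.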
